A study of Homo sapiens with 6 samples.

Results

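SNARE proteins and their cofactors are the machinery that fuses vesicles with target membranes, and 42 genes of this machinery were read from nascent RNA libraries of A375 human melanoma cells. The genes were chosen by name, as the listed SNARE, NSF, SNAP and Munc18 genes, and not by their values. All 42 had a single gene identifier among the 58243 in the count tables, and all 42 passed the low-count filter that kept 23884 genes for testing. A375 is an established melanoma cell line, and every library came from A375 cells kept under hygromycin B after stable transfection. The EV group carried an empty vector and the PRL3 group a plasmid expressing human PRL3, a membrane-associated phosphatase encoded by PTP4A3, with 3 libraries per group. Both groups were given 500 µM 4-thiouridine (4sU) for 20 min, and the RNA that took up this uridine analogue was purified with biotin, depleted of ribosomal RNA and sequenced as paired reads in a strand-specific way. The PRL3 cells are a stably transfected derivative of the line, so the introduced gene and any other difference between the derivatives cannot be told apart. The labels do not say that the 3 libraries of a group came from separate cultures, so all p-values measure the spread between these libraries, which may be technical.

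SNARE proteins carry a short helical motif, and 4 such motifs, classed as R, Qa, Qb and Qc by their central residue and position, zip into a bundle that draws a vesicle and its target membrane together. Most syntaxins supply the Qa motif, while STX6, STX8 and STX10 supply a Qc motif. VAMP proteins mostly supply the R motif, and SNAP23 and its relatives supply both a Qb and a Qc motif. After fusion the bundle is taken apart by the ATPase NSF, which is recruited by the SNAP adaptors encoded by NAPA, NAPB and NAPG, while Munc18 proteins bind syntaxins and guide assembly. Different SNARE combinations serve the plasma membrane, the endosomes and lysosomes, the trans-Golgi network and the route between the endoplasmic reticulum (ER) and the Golgi. In pigment cells the same machinery also serves melanosomes, which are lysosome-related organelles.

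The 6 libraries held between 36532207 and 57952035 reads counted on genes, and no pair of them agreed within sampling noise, the mean chi-square per gene between libraries being at least 24.7. PTP4A3 checked the labels, with normalized counts of 217 ± 59.4 (SD, n = 3) in EV and 24387 ± 3796 in PRL3. Of the uniquely aligned reads, 28.7% to 41.1% lay outside annotated exons of the expected strand in the EV libraries and 62.8% to 69.1% in the PRL3 libraries. The part of that difference in the results for the fusion genes was not tested. Of 8 melanocytic marker genes, 3 reached 100 counts in any library. These were SOX10 and S100B, both lower in PRL3 (log2 fold changes of -0.85 and -1.38), and MITF, which was not past the threshold, and the list of 8 summed to 19284 to 27500 counts in EV and 12623 to 22761 in PRL3. The pigment genes TYR and MLANA reached at most 2 counts, and PMEL lay between 26 and 61 counts. All 4 markers of undifferentiated melanoma were expressed, with a sum of 18822 to 25281 counts in EV and 16397 to 26535 in PRL3, and NGFR and AXL among them were lower in PRL3 (log2 fold changes of -1.69 and -0.40). Of the other lists, 0 of 3 haematopoietic and 0 of 3 epithelial markers reached 100 counts. Of 3 neuronal markers, SYP and ENO2 did, with ENO2 lower in PRL3 by 0.98 on the log2 scale, and the part of this in the results was not tested.

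Because the results turn mainly on 5 genes, the sequences around their start sites are shown here. They are the neighbouring R-SNARE genes VAMP5 and VAMP8, which fell furthest of their class, the Qc-SNARE gene STX10, and VAMP1 and GOSR2, the members that rose furthest. Each run holds the 250 bases before and the 50 bases from the start, as given by RefSeq on GRCh38.p14 and read 5′ to 3′ on the gene's own strand. The coordinates are chr2:85584181-85584480 for VAMP5 and chr2:85577336-85577635 for VAMP8 on the plus strand, chr19:13150326-13150625 for STX10 and chr12:6470628-6470927 for VAMP1 on the minus strand, and chr17:46922910-46923209 for GOSR2 on the plus strand. For VAMP8 the RefSeq start lies well inside the gene span of the GENCODE annotation used for spans and levels, which begins far upstream, so its promoter, span and level per length depend on the annotation. Capitals mark E-box letters on either strand, CACGTG or CATGTG.
VAMP5: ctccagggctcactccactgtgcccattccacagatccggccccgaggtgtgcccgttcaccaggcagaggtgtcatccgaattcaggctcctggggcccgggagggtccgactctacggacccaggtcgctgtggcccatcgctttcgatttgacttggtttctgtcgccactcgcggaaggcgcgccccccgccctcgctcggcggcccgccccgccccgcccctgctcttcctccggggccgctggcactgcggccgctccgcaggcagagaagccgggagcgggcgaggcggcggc
VAMP8: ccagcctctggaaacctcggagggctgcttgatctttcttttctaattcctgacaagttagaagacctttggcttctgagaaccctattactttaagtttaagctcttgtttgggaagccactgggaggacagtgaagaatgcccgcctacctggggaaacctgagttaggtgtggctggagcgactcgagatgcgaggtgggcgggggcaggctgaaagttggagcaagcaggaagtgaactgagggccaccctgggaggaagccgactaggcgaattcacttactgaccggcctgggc
STX10: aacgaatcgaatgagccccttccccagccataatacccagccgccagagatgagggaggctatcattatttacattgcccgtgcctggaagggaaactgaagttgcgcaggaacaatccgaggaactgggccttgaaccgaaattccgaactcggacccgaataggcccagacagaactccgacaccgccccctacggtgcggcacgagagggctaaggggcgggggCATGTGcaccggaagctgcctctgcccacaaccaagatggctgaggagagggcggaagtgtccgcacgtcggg
VAMP1: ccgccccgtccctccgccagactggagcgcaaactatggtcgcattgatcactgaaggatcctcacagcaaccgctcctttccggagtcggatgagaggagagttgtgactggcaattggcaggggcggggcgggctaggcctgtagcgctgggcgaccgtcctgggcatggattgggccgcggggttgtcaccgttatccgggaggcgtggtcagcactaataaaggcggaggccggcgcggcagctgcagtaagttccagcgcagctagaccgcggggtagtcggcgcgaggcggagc
GOSR2: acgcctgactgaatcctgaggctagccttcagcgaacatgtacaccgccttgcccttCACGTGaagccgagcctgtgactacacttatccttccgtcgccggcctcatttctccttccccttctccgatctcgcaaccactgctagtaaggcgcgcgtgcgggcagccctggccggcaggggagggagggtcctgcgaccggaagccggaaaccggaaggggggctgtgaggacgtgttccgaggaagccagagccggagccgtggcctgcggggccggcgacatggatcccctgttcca

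CACGTG is the E-box that MITF and TFE factors can bind, and CATGTG is a related form. CACGTG stood in the GOSR2 run and CATGTG in the STX10 run, and neither stood in the runs of VAMP5, VAMP8 and VAMP1. RefSeq gave 50 promoters of this length for 38 of the 42 members, and none for USE1, BET1L, STX17 and SNAP25. CACGTG was found in 10 of the 50 (20%), from 9 members, against 7.26% of the 35116 promoters in the table. CATGTG was found in 5 (10%), from 4 members, against 11.1%. TCACGTGA, which contains CACGTG, was found in 3 promoters, those of GOSR2, STX4 and STX6, against 0.980% of the table. Member promoters were richer in G and C, with a median of 65.7% against 58.7%, and promoters of the same gene share sequence. Of the 15 members called lower that had a promoter in the table, 3 held CACGTG, as did 6 of the 23 others. These matches are letters in a window and not measured binding.

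Across the 42 genes, 17 (40.5%) fell and 4 (9.52%) rose in PRL3 cells at a threshold of 0.05 on the p-value of edgeR's quasi-likelihood test after adjustment, and 21 did not pass it. Over all genes tested, 22.7% fell and 20.0% rose, and over the protein-coding genes among them 31.6% fell and 15.2% rose. The share of members called lower was thus above the background of all genes and nearer to that of protein-coding genes. The median log2 fold change of the members was -0.27, against 0.11 over all genes tested and -0.15 over protein-coding genes. In total, 29 of the 42 log2 fold changes were below 0. Changes in normalized counts cannot tell fewer cells of a kind from less RNA per cell. Of the members called lower, 5 fell by more than 1 on the log2 scale, and 1 of those called higher rose by more than 1. The PRL3 libraries were all below the EV libraries for 18 members, where this held for 26.6% of all genes, and all above them for 10, where the background was 29.7%. All 21 called members had separate groups of libraries in this sense, as did 7 members that did not pass the threshold, and for each of these members the two-sided exact permutation p was 0.1, the smallest that 3 libraries against 3 allow.

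**Figure D1:**
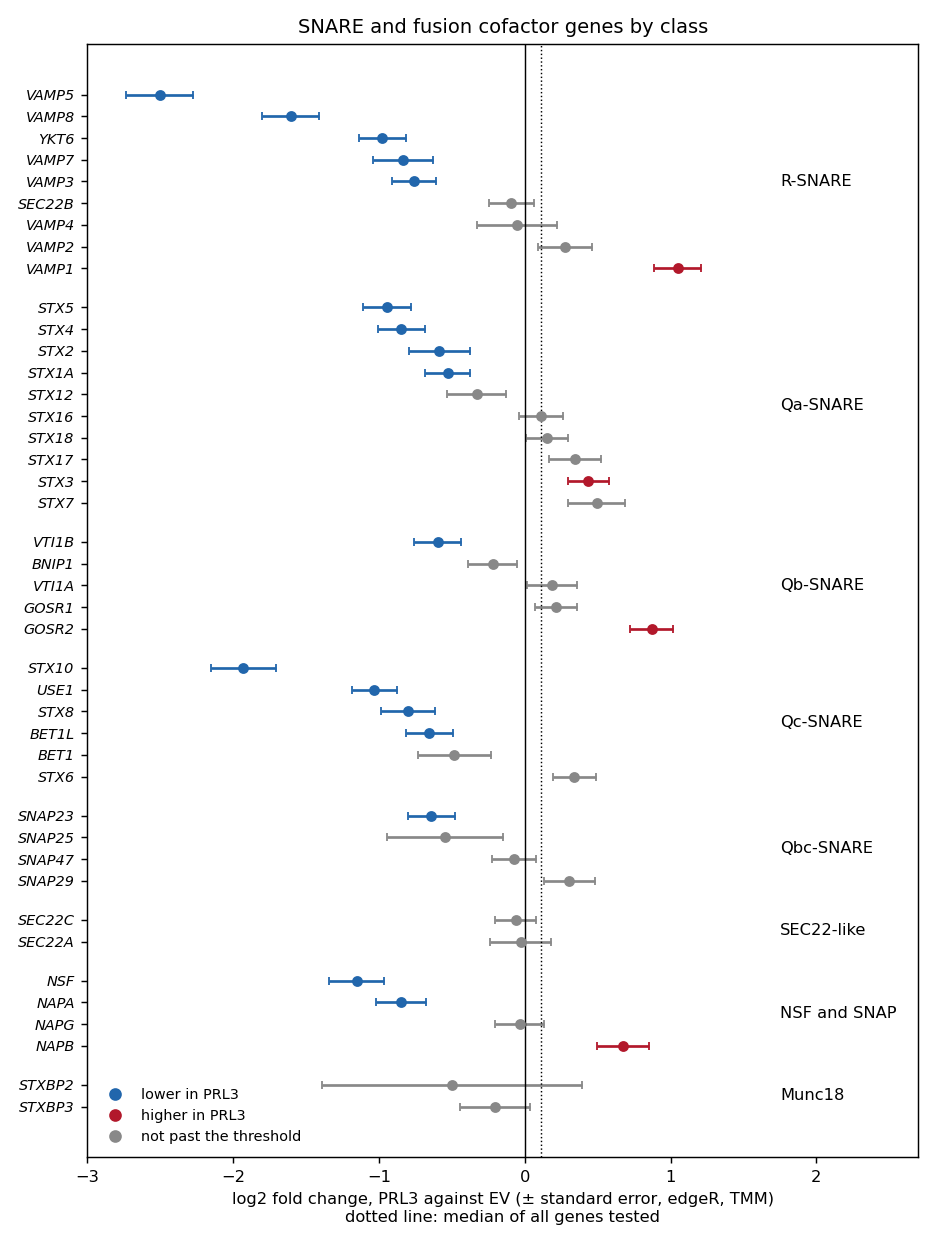
The log2 fold change of PRL3 against EV (horizontal axis, points, with bars of 1 standard error from edgeR) is drawn for all 42 genes by class. Blue points are the 17 genes lower in PRL3, red points the 4 higher and grey points the 21 that did not pass the threshold, and the dotted line marks the median of all genes tested, 0.11. Under scaling by library size alone the lower and higher counts become 7 and 17, and under scaling by all uniquely aligned reads 26 and 1.

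These counts depend on how the libraries are set against each other. The main scaling (TMM) put the median of all genes at 0.11, upper-quartile scaling at 0.29, library size alone at 0.60 and all uniquely aligned reads at -0.36. The members moved with it, to 15 lower and 9 higher, 7 lower and 17 higher, and 26 lower and 1 higher, and their median changed sign to 0.23 with library size alone. All genes moved too, with 12.9% lower and 39.8% higher under library size alone and 35.5% lower and 8.17% higher under all uniquely aligned reads. Relative to the median of all genes, the members' median was -0.39 with the main scaling and between -0.40 and -0.37 under the other scalings. A change of scaling moves all genes by nearly the same amount, so this stability is no support. The relative median did depend on the genes fitted. It was -0.12 when only protein-coding genes were fitted, -0.23 with at least 10 counts in every library and -0.50 without the low-count filter. The 8 genes that kept their call under every alternative tried were VAMP5, VAMP8, STX10, STX5, YKT6, USE1 and NSF, which were lower, and VAMP1, which was higher. The direction of the other called members is given below under the main scaling. Of these, 10 no longer passed the threshold with library size alone, although their log2 fold changes stayed below 0, and STX1A and STX2 among them also lost the call with upper-quartile scaling. GOSR2, NAPB and STX3 no longer passed it with all uniquely aligned reads, where STX3 turned to -0.04.

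**Figure D2:**
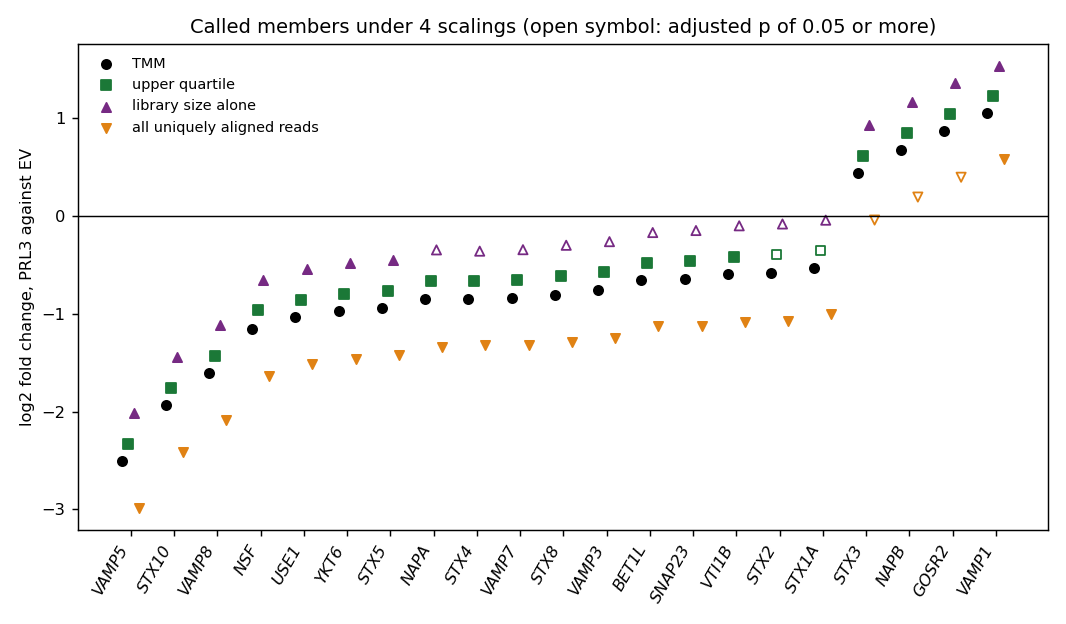
The log2 fold change of PRL3 against EV (vertical axis) is drawn for the 21 called genes under 4 scalings, with open symbols where the adjusted p did not pass the threshold. VAMP5, STX10, VAMP8, NSF, USE1, YKT6 and STX5 are filled below 0 and VAMP1 is filled above 0 under all 4, whereas STX3 crosses 0 with all uniquely aligned reads.

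R-SNAREs ride mostly on vesicles. Of 9, 5 were lower and 1 was higher, with a median log2 fold change of -0.76. For this class and those below, the shares over protein-coding genes tested were 31.6% lower and 15.2% higher, and each class holds few genes. VAMP5, a VAMP of the plasma membrane first known from muscle, had the largest change among the members. It held 1695, 2474 and 1569 normalized counts in the EV libraries and 289, 428 and 292 in the PRL3 libraries. The groups were far apart, with a log2 fold change of -2.50 ± 0.23 (SE, n = 3 per group; adjusted p = 9.89e-06), so that PRL3 held 0.176 of the EV level. VAMP8, which serves late endosomes and the fusion of autophagosomes with lysosomes, held 1150, 1456 and 1054 in EV and 369, 467 and 367 in PRL3. No PRL3 library came near the lowest EV library, and the log2 fold change was -1.60 ± 0.20 (SE; adjusted p = 3.68e-05). YKT6, a lipid-anchored R-SNARE of the Golgi and of autophagosomes, held 13934, 15530 and 11908 in EV and 6266, 7999 and 6765 in PRL3. It was the member with the highest counts in EV and its groups did not overlap, with a log2 fold change of -0.98 ± 0.16 (SE; adjusted p = 0.00034).

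VAMP3, or cellubrevin, which recycles between endosomes and the cell surface, held 3666, 3153 and 2825 in EV and 1896, 1860 and 1936 in PRL3, a log2 fold change of -0.76 ± 0.15 (SE; adjusted p = 0.00132). Its PRL3 libraries lay close together and below every EV library. VAMP7, which acts in fusion with lysosomes and the plasma membrane, was lower by a log2 fold change of -0.84 ± 0.21 (SE). In the other direction, VAMP1, a synaptobrevin best known from synaptic vesicles, held 1196, 1236 and 1536 in EV and 2780, 2964 and 2472 in PRL3. Every PRL3 library was above every EV library, and the log2 fold change was 1.05 ± 0.16 (SE; adjusted p = 0.000208). Its close relative VAMP2 had a log2 fold change of 0.28 ± 0.19 (SE; adjusted p = 0.259) with overlapping libraries, and 11.9% of its exon bases are shared with another gene on the same strand. VAMP4, of the trans-Golgi network, and SEC22B, of the ER and Golgi, had log2 fold changes of -0.05 and -0.09, both with overlapping libraries.

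**Figure D3:**
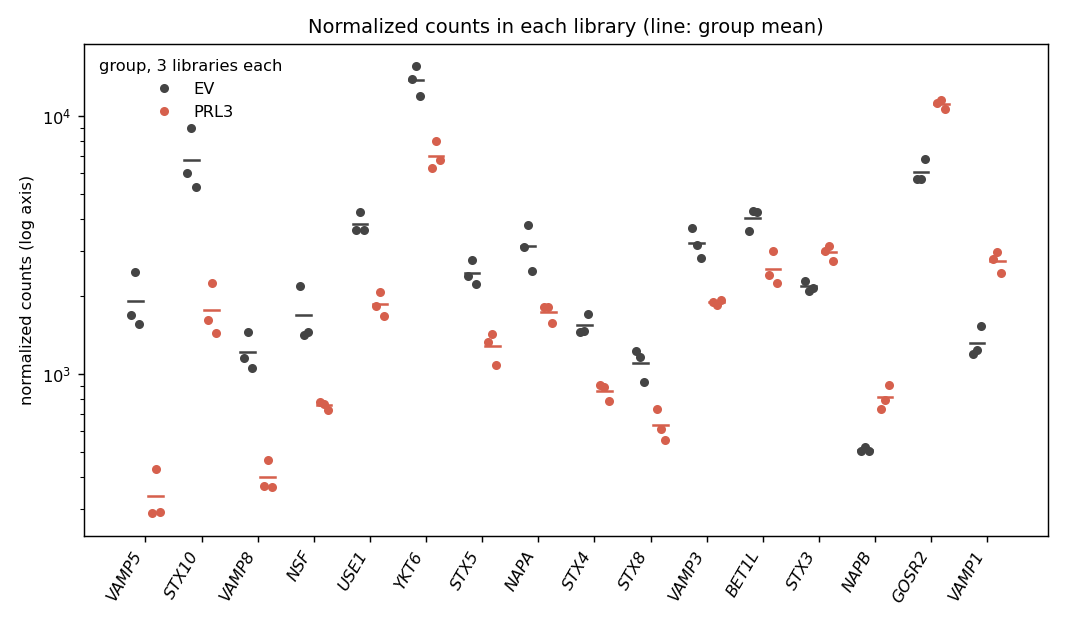
Normalized counts on a log axis are drawn for each library (points, EV dark and PRL3 red, 3 libraries each, lines at the group means) for 16 of the 21 called members. The 2 groups are separate for every gene drawn, with VAMP5 showing the widest gap, from 1569 in the lowest EV library to 428 in the highest PRL3 library.

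The Qa-SNAREs are syntaxins, which sit mostly on target membranes. Of 10, 4 were lower and 1 was higher, with a median of -0.11. Relative to all genes this was -0.22, but 0.045 when only protein-coding genes were fitted and -0.35 without EV library 3, so no direction is read from it. STX5, the syntaxin of the Golgi, held 2403, 2756 and 2242 in EV and 1335, 1430 and 1085 in PRL3, a log2 fold change of -0.94 ± 0.16 (SE; adjusted p = 0.000529). Its groups were well separated. STX4, the broadly expressed syntaxin of the plasma membrane, held 1460, 1467 and 1714 in EV and 906, 888 and 785 in PRL3, a log2 fold change of -0.85 ± 0.16 (SE; adjusted p = 0.000975). It too had no overlap between the groups. STX3, a syntaxin of the apical plasma membrane in epithelia, held 2301, 2106 and 2160 in EV and 3008, 3134 and 2744 in PRL3. All PRL3 libraries were above all EV libraries under the main scaling, with a log2 fold change of 0.44 ± 0.14 (SE; adjusted p = 0.0248), while the value was -0.04 with all uniquely aligned reads. The call of STX3 was also lost without EV library 3, PRL3 library 9 or PRL3 library 10, where the adjusted p was 0.0512, 0.0742 and 0.0997. Smaller decreases were called for STX1A, the neuronal plasma membrane syntaxin, at -0.53 ± 0.16 (SE), and STX2, its relative, at -0.59 ± 0.21 (SE). Leaving out PRL3 library 9 or 11 ended the call of STX1A, and leaving out EV library 1 or any PRL3 library ended that of STX2. Both calls were also lost when only protein-coding genes were fitted (adjusted p = 0.0732 and 0.108).

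Among the syntaxins that did not pass the threshold, STX7 of late endosomes came nearest, with 809, 558 and 578 in EV and 836, 880 and 1021 in PRL3. Its groups were separate by a small gap, and the log2 fold change was 0.49 ± 0.19 (SE; adjusted p = 0.0567). STX17, the syntaxin of autophagosomes, and STX18, of the ER, also had every PRL3 library above every EV library, with log2 fold changes of 0.34 and 0.15. STX12 of recycling endosomes and STX16 of the trans-Golgi network had values of -0.33 and 0.11 with overlapping libraries, and 28.5% of the exon bases of STX16 are shared with the read-through gene STX16-NPEPL1, which held 73 to 164 counts.

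Qb-SNAREs and Qc-SNAREs complete the bundles of the secretory and endosomal routes. Of 5 Qb-SNAREs, 1 was lower and 1 was higher, and of 6 Qc-SNAREs, 4 were lower and 0 higher, with a median of -0.73. STX10, a syntaxin of the trans-Golgi network, held 5988, 8986 and 5296 in EV and 1621, 2244 and 1446 in PRL3. Even its highest PRL3 library was well under its lowest EV library, with a log2 fold change of -1.93 ± 0.22 (SE; adjusted p = 2.63e-05). USE1, which serves retrograde traffic into the ER, held 3600, 4248 and 3607 in EV and 1829, 2084 and 1683 in PRL3, a log2 fold change of -1.03 ± 0.15 (SE; adjusted p = 0.000161). The groups again lay apart, and the values within each were close. STX8 of late endosomes held 1229, 1163 and 932 in EV and 734, 614 and 556 in PRL3, a log2 fold change of -0.80 ± 0.19 (SE; adjusted p = 0.0035). BET1L, a Golgi SNARE, held 3593, 4271 and 4240 in EV and 2430, 3003 and 2258 in PRL3, a log2 fold change of -0.65 ± 0.16 (SE; adjusted p = 0.00497). Neither STX8 nor BET1L had overlapping groups, although the gap was narrower than for STX10.

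The remaining Qc-SNAREs did not pass the threshold. STX6, a trans-Golgi syntaxin and close relative of STX10, held 2603, 2341 and 2169 in EV and 2841, 3015 and 3148 in PRL3, so that its libraries were separate in the direction opposite to STX10. Its log2 fold change was 0.34 ± 0.15 (SE; adjusted p = 0.0755). BET1, the ER-to-Golgi relative of BET1L, had a value of -0.48 ± 0.25 (SE; adjusted p = 0.138). GOSR2, also called membrin, a Qb-SNARE of the ER-to-Golgi route, held 5713, 5705 and 6823 in EV and 11239, 11502 and 10588 in PRL3. All PRL3 libraries were far above all EV libraries under the main scaling, with a log2 fold change of 0.87 ± 0.15 (SE; adjusted p = 0.000383). This call was lost with all uniquely aligned reads, at 0.40. VTI1B of late endosomes was lower by a log2 fold change of -0.60 ± 0.16 (SE), a call that was lost without PRL3 library 9. GOSR1 of the Golgi, VTI1A of the trans-Golgi network and BNIP1 of the ER had values of 0.21, 0.19 and -0.22, and only GOSR1 of these had separate groups.

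Of the 4 Qbc-SNAREs, which give 2 motifs to a bundle, only SNAP23 passed the threshold. SNAP23 is the widely expressed partner of plasma membrane syntaxins, and its log2 fold change was -0.64 ± 0.16 (SE; adjusted p = 0.0058). SNAP29, which pairs with STX17 on autophagosomes, had a value of 0.31 with every PRL3 library above every EV library, and SNAP47 had a value of -0.08. SNAP25, the neuronal form, was barely transcribed, with 78 to 206 normalized counts, and its value of -0.55 rested on EV library 3, since it was 0.02 without that library. The SEC22-like genes SEC22A and SEC22C, which lack a SNARE motif, had values of -0.03 and -0.06.

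The disassembly machinery was split. NSF, the ATPase that recycles SNAREs after fusion, held 2187, 1422 and 1452 in EV and 777, 768 and 728 in PRL3. The PRL3 libraries lay in a narrow band well below EV, and the log2 fold change was -1.15 ± 0.19 (SE; adjusted p = 0.000361). The near copy NSFP1 held at most 6 counts. Only uniquely aligned reads are counted, so this does not show how many reads matched both genes and were lost. NAPA, the alpha-SNAP adaptor, held 3112, 3781 and 2505 in EV and 1815, 1820 and 1583 in PRL3, a log2 fold change of -0.85 ± 0.17 (SE; adjusted p = 0.00153). Another gene on the same strand shares 13.2% of the exon bases of NAPA. NAPB, the beta-SNAP adaptor known mainly from brain, held 504, 523 and 503 in EV and 735, 796 and 911 in PRL3, a log2 fold change of 0.67 ± 0.18 (SE; adjusted p = 0.00792). NAPA and NAPB thus moved in opposite directions under the main scaling, each without overlap, but the call of NAPB was lost with all uniquely aligned reads and without PRL3 library 11. NAPG, the gamma-SNAP adaptor, did not pass the threshold, with -0.03 ± 0.17 (SE; adjusted p = 0.889). Neither Munc18 gene passed it: STXBP3 had a value of -0.20 ± 0.24 (SE), and STXBP2 held 6 to 32 normalized counts, too few to measure.

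Sorted by the membrane on which the proteins chiefly act, 5 of 11 plasma membrane genes were lower and 2 were higher, and 4 of 7 genes of late endosomes, lysosomes and autophagosomes were lower and 0 higher. Their medians were -0.53 and -0.60. The late endosomal genes did not all go 1 way. The 3 that were not called, STX7, STX17 and SNAP29, had log2 fold changes of 0.49, 0.34 and 0.31. For these 3 every PRL3 library was above every EV library, which held for 29.7% of all genes tested. Of 12 ER and Golgi genes 4 were lower and 1 was higher, with a median of -0.16, and of 7 trans-Golgi and early or recycling endosome genes 2 were lower (STX10 and VAMP3), with a median of -0.05. Relative to all genes, the medians of the plasma membrane and late endosomal genes ran from -0.80 to -0.36 and from -0.86 to -0.64 when each library was left out in turn. That of the trans-Golgi group ran from -0.31 to 0.08, so its sign changed. Over protein-coding genes tested, 31.6% were lower and 15.2% higher. The shares lower were 33.3% for ER and Golgi genes and 28.6% for the trans-Golgi group, near that background. They were 45.5% for plasma membrane genes and 57.1% for late endosomal genes, each over few genes. Differences between these groups of genes were not tested.

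A bundle needs a member of each class, so the subunits of known complexes were set side by side. All 3 genes of a plasma membrane complex, STX4, SNAP23 and VAMP3, were lower, between -0.64 and -0.85. In the late endosome complex VTI1B, STX8 and VAMP8 were lower, while STX7 was not past the threshold and lay above 0. In the intra-Golgi complex STX5, BET1L and YKT6 were lower and GOSR1 was not past the threshold. None of the 4 genes of a trans-Golgi complex, STX16, VTI1A, STX6 and VAMP4, passed it, and their values spanned 0.39 in all. STX10 and VAMP3, sorted above with the trans-Golgi and early or recycling endosome genes, are not in this set. Both were lower, at -1.93 and -0.76. In the ER-to-Golgi complex STX5 was lower and GOSR2 higher under the main scaling, a spread of 1.81 between the subunits. In the ER retrograde complex USE1 was the only gene called, and in the autophagosome complex VAMP8 was the only gene called, beside STX17 and SNAP29 at 0.34 and 0.31. STX5, SEC22B and VAMP8 each count in more than 1 complex. The calls of STX4, SNAP23, VAMP3, STX8, VTI1B and BET1L were lost with library size alone.

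Because a ratio of 2 genes within a library does not depend on the scaling, 13 pairs of related members were compared in this way. For 10 pairs the ratios of the 3 PRL3 libraries did not overlap those of EV. Among single genes tested, all PRL3 libraries lay below all EV libraries for 26.6% and above them for 29.7%. The share of separate ratios over other gene pairs was not computed, so the count is no result about related genes. With 3 libraries against 3, the two-sided exact permutation test cannot go below p = 0.1, which these 10 pairs reached (Benjamini-Hochberg adjusted 0.13 over the pairs). The widest shift was between the trans-Golgi syntaxins, where the ratio of STX6 to STX10 counts rose from 0.359 to 1.72, a log2 difference of 2.26 ± 0.31 (SE). The ratio of STX3 to STX4, both plasma membrane syntaxins, went from 1.42 to 3.45, a log2 difference of 1.28 ± 0.097 (SE). VAMP2 against VAMP3 shifted by 1.05 ± 0.26 (SE) and SNAP29 against SNAP23 by 0.95 ± 0.18 (SE) on the log2 scale. VAMP5 fell further than VAMP8, since their ratio went from 1.55 to 0.83, a log2 difference of -0.90 ± 0.098 (SE). STX7 against STX12 and VAMP7 against VAMP8 shifted upward by 0.82 and 0.77, and NAPA against NAPG, VTI1B against VTI1A and GOSR1 against GOSR2 shifted by -0.81, -0.78 and -0.67. The ratio of SEC22B to SEC22C, with a log2 difference of -0.02 ± 0.12 (SE), and that of BET1 to BET1L, with 0.16 ± 0.35 (SE), overlapped between the groups, as did STXBP2 to STXBP3. Within a class the shares of the summed level per length moved as well. VAMP5 made up 28.9% ± 4.10 (SD, n = 3) of the R-SNARE level in EV and 9.88% ± 1.495 in PRL3, VAMP1 went from 4.97% ± 1.28 to 19.6% ± 1.44, and YKT6 stayed near 21.6% and 21.3%. STX10 went from 51.8% ± 5.45 to 31.1% ± 3.08 of the Qc-SNARE level. A share also moves with the other genes of its class, so it is not a change in level. Under the main scaling VAMP1 in PRL3 held 2.07 times its EV level, and YKT6 held 0.508 of its own.

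**Figure D4:**
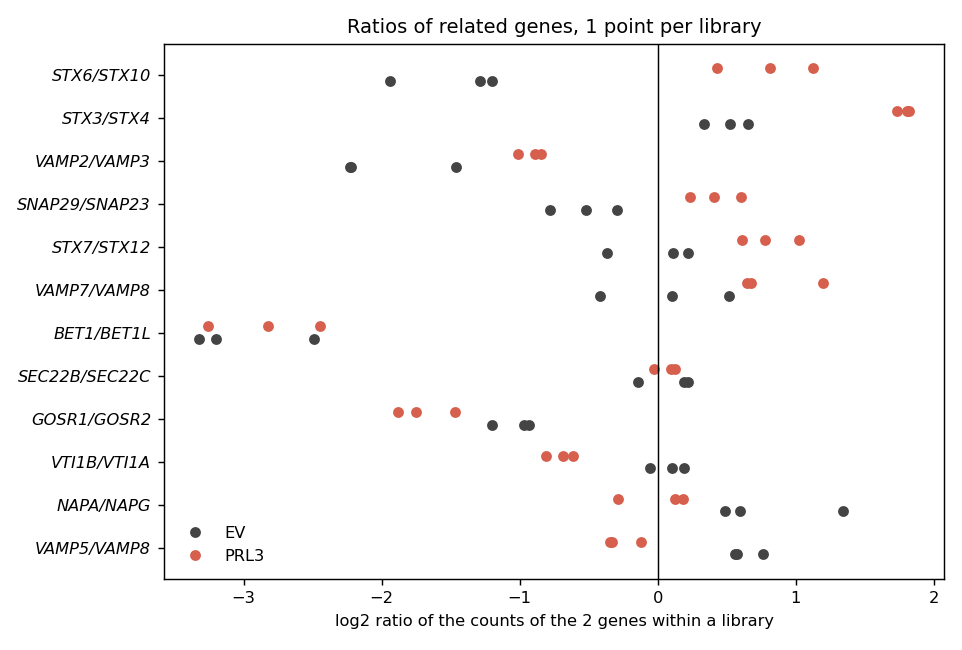
Each point is the log2 ratio of the counts of 2 related genes within 1 library (EV dark, PRL3 red, 3 libraries each) for 12 of the 13 pairs, the pair with STXBP2 being left out for its low counts. The STX6 to STX10 points lie below 0 in EV and above 0 in PRL3, and BET1 to BET1L and SEC22B to SEC22C overlap.

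Levels were compared between genes per length, as reads per kilobase of merged exons scaled to sequencing depth (RPKM), with exons from a later annotation than the counts. In EV, STX10 stood highest at 79.9 ± 23.2 RPKM (SD, n = 3), followed by VAMP5 at 51.4 ± 13.2, YKT6 at 38.1 ± 5.02, USE1 at 33.3 ± 3.25, VAMP8 at 28.9 ± 4.98 and VAMP3 at 24.97 ± 3.29. In PRL3 these genes stood at 20.9 ± 4.96, 9.04 ± 2.13, 19.4 ± 2.47, 16.3 ± 1.77, 9.50 ± 1.36 and 14.7 ± 0.297 RPKM. The 6 genes with the highest levels in EV were thus all called lower in PRL3, although 38 of the 41 neighbouring pairs in the EV order had overlapping libraries. They are ranked by the EV level that the fold change is measured from, which tilts the top ranks toward decreases. The share of lower calls among other genes at such levels was not computed. The lowest levels were those of STX7 at 0.84, SNAP25 at 0.13 and STXBP2 at 0.054 RPKM. Across the 42 members the Spearman correlation of the EV level with the log2 fold change was -0.50, a description over genes that are not independent and whose fold change contains the EV level.

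The members were also laid out by the distance the gene spans in the genome. Protein-coding genes tested that span under 10 kb had a median log2 fold change of -0.64, those of 10 to 30 kb -0.33, those of 30 to 100 kb -0.09 and those above 100 kb 0.14. The members followed the same order up to 100 kb, with -1.03 over 5 genes, -0.60 over 13 and -0.05 over 19. In these 3 ranges, 3 of 5, 8 of 13 and 4 of 19 members were lower. Of the protein-coding genes in the same ranges, 48.4%, 40.0% and 27.0% were lower. Above 100 kb, 2 of 5 members, NSF and STX8, were lower, where 12.8% of protein-coding genes of that span were. VAMP1, at 8.44 kb, rose among short genes, of which 8.84% were higher. Spearman's rho between span and log2 fold change was 0.32 over the 42 members and 0.30 over 14443 protein-coding genes, given as a description. The part of gene span in the members' values was not tested.

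**Figure D5:**
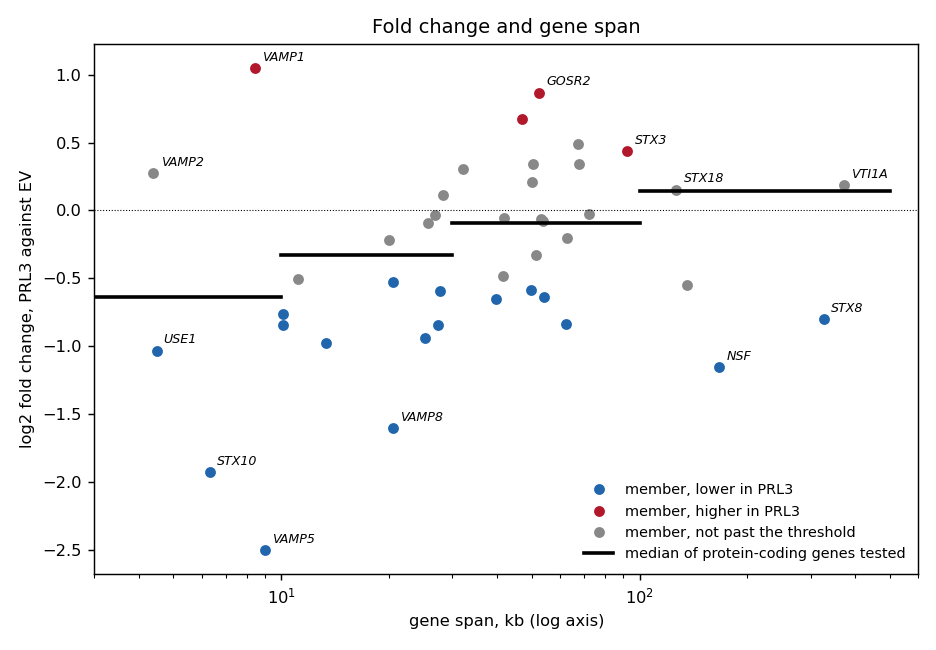
The log2 fold change of PRL3 against EV (vertical axis) is drawn against gene span in kb on a log axis, with 1 point per member and black bars at the medians of protein-coding genes tested in 4 span ranges, from -0.64 below 10 kb to 0.14 above 100 kb. VAMP5, STX10 and VAMP8 lie well under the bar of their range, VAMP1 lies above its bar, and NSF and STX8 lie below 0 among the longest genes.

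VAMP8 and VAMP5 are neighbours in the same orientation on chromosome 2, with 2399 bases between the annotated end of the former (85561562 to 85582031 in GENCODE, GRCh38) and the start of the latter (85584431 to 85593406). The other genes within 50 kb were looked at after the values of these were seen. RNF181, a ubiquitin ligase gene just downstream of VAMP5, held 3987, 5767 and 3580 normalized counts in EV and 1242, 1518 and 1211 in PRL3, a log2 fold change of -1.75 ± 0.19 (SE; adjusted p = 2.14e-05). TMEM150A was lower too, at -1.12 ± 0.26 (SE; adjusted p = 0.00341). GGCX, upstream of VAMP8 on the opposite strand, MAT2A, USP39 and C2orf68 did not pass the threshold, with values of 0.09, 0.25, 0.02 and 0.27. Thus 4 genes in a row, from VAMP8 to TMEM150A, were lower between neighbours that were not called. VAMP8 and VAMP5 were already known to be lower, and 48.4% of protein-coding genes tested that span under 10 kb were lower. The run was not tested against that share.

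Other genes that act with SNAREs were read from lists of regulators and tethers chosen by name, and their directions are given under the main scaling only. The gene named in each direction is the called gene with the smallest p, which need not have the largest change. Of 79 such genes 72 were tested, and 25 (34.7%) were lower and 8 (11.1%) higher, close to the 31.6% and 15.2% of protein-coding genes, with a median log2 fold change of -0.17. Tethers hold a vesicle before fusion. The list of HOPS genes for late endosomes and lysosomes had 3 of 5 lower, among them VPS16 at -1.39 ± 0.17 (SE). This list does not hold every HOPS subunit. The TRAPP genes for the ER-to-Golgi route had 7 of 14 lower, among them TRAPPC1 at -1.72 ± 0.20 (SE). They had 2 higher, among them TRAPPC2 at 0.93 ± 0.17 (SE). Of 9 exocyst genes for the plasma membrane, 3 were lower, among them EXOC7 at -1.11 ± 0.14 (SE), and EXOC8 was higher at 0.82 ± 0.15 (SE). The COG complex of the Golgi had 1 of 8 lower, COG4 at -1.01 ± 0.15 (SE), and 2 higher, among them COG8 at 1.04 ± 0.17 (SE). Of 5 GARP and EARP genes, 2 were lower, among them VPS51 at -0.96 ± 0.18 (SE), and VPS53 was higher at 0.52 ± 0.16 (SE). In the NRZ tether of the ER, 1 of 3 was lower, RINT1 at -0.47 ± 0.17 (SE). TRAPP, the exocyst, COG, and GARP and EARP thus each held genes called in either direction.

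Among proteins that act on SNAREs directly, 4 of 8 tested SNARE regulators were lower, among them UNC13D, a priming factor of secretory granules, at -1.35 ± 0.25 (SE), and 2 were higher, among them STXBP4 at 0.72 ± 0.19 (SE). Of 11 tested synaptotagmins, a family of which only some members are calcium sensors of exocytosis, 2 were lower, among them SYT11 at -0.78 ± 0.16 (SE). None of the 3 other SNARE genes tested passed the threshold, and 1 of them had an unadjusted p under 0.05.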

How the data were processed

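The data are 4sU-seq libraries of A375 cells, 3 from EV and 3 from PRL3 cells. The authors aligned the reads to GRCh38 with STAR 2.5.1b after quality control with FastQC 0.11.3, counted reads per gene with the reverse-strand setting of HTSeq 0.6.1 and Ensembl release 91, and deposited whole-number counts per gene without normalization, which is the unit used here. Reads wholly within introns of every annotated transcript are not in these counts. A read in an intron of a gene's main (canonical) transcript can be counted where another transcript has an exon. In GENCODE, 72.6% of the exon bases of GOSR2 and 16.3% of those of VAMP1 lie outside the canonical transcript. Spearman's rho of this share with the log2 fold change was -0.25 over 42 members and -0.088 over protein-coding genes. The part of such reads in the results was not tested. Exon bases shared with another gene on the same strand were found for 11 members. Among called members the share was 13.2% for NAPA, 5.62% for VTI1B, 5.12% for GOSR2, 2.51% for STX2 and 2.35% for STX3. The rows for reads in no gene, ambiguous reads and unaligned reads were left out of library sizes and tests, and their shares are given as found.

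The members, the complexes, the pairs and the partner, marker and motif lists were chosen with earlier results of these data known. All 42 members are accounted for. Values in each library are given for the 14 called members with the smallest p and for each called member that was higher, other called members are given with a standard error, and from a partner list the lower and the higher gene with the smallest p is named, except for a list that is not reported here. Gene positions, exons and symbols came from GENCODE release 44, to which 57532 of 58243 identifiers were matched.

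The PRL3 group was tested against the EV group with edgeR 4.0.16 under R 4.3.3 (TMM scaling, filterByExpr with the group, quasi-likelihood F test, Benjamini-Hochberg adjustment over the 23884 genes kept, threshold 0.05), without covariates. Standard errors came from the log2 fold change and the F statistic. To normalize, each count was divided by its library's effective size and rescaled to the mean effective size, and RPKM used the merged exons of each gene. Ratios of pairs were tested with a two-sided exact permutation test. The procedure was first run on simulated data. DESeq2 1.42.0, limma 3.58.1 (voom), other scalings, filters and the omission of each library were tried as alternatives. With library totals from 36532207 to 57952035 counts, precision was limited by the number of libraries for all but the lowest genes.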

Additional observations from a re-analysis of the deposited data

Results flagged for a closer look

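In reads that the comparisons above do not use, the share of uniquely aligned reads outside annotated exons of the expected strand averaged 66.3% ± 3.18 (SD, n = 3) in the PRL3 libraries and 33.3% ± 6.75 in the EV libraries, and it is given here because it stood above the level of the control libraries. The lowest PRL3 library, at 62.8%, was above the highest EV library, at 41.1%. These reads carry no gene name in the tables, so they could not be assigned to the fusion genes. Groups of 3 libraries were not checked for outlying values.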

How the results depend on the processing

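The limits below concern the 42 fusion genes. The 7 lower calls and the higher call named as kept in the report held under every other setting tried and at a threshold of 0.01. The main counts were 17 lower and 4 higher. Members lower numbered 7 with library size alone and 26 with all uniquely aligned reads. Members higher numbered 9 under upper-quartile scaling, 17 with library size alone, 1 with all uniquely aligned reads and 9 with protein-coding genes only. DESeq2 gave 17 and 4, limma-voom 17 and 5. Leaving out each library in turn gave 14 to 18 lower and 3 to 6 higher. The members' median log2 fold change, -0.27 in the main result, was -0.091 under upper-quartile scaling, 0.23 with library size alone, -0.76 with all uniquely aligned reads, -0.18 with at least 10 counts in every library and -0.090 with protein-coding genes only. The median EV level, 7.71 RPKM, was 6.48 with library size alone and 4.03 with all uniquely aligned reads. The cause of these shifts was not tested, beyond the change of scale itself. No paired analysis was possible because the library numbers, 1 to 3 in EV and 9 to 11 in PRL3, share none.

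Medians relative to that of all genes tested moved by more than the spread between libraries in these cases. With at least 10 counts in every library, these values were -0.23 for all the members and -0.77 for the R-SNAREs. With protein-coding genes only, these values were -0.12 for all the members, -0.61 for the R-SNAREs, 0.045 for the Qa-SNAREs, -0.58 for the Qc-SNAREs, -0.17 for the Qbc-SNAREs, 0.34 for the Qb-SNAREs, -0.29 for the NSF and SNAP genes, -0.38 for the plasma membrane genes, 0.10 for the trans-Golgi and early or recycling endosome genes, -0.44 for the late endosomal genes and -0.0026 for the ER and Golgi genes. Without the low-count filter, these values were -0.50 for all the members, -0.99 for the R-SNAREs, -0.34 for the Qa-SNAREs, -0.54 for the Qbc-SNAREs, -0.76 for the plasma membrane genes, -0.83 for the late endosomal genes and -0.38 for the ER and Golgi genes. When each library was left out in turn they ran from -0.995 to -0.74 for the R-SNAREs, from -0.35 to -0.18 for the Qa-SNAREs, from -0.48 to -0.18 for the Qbc-SNAREs, from -0.80 to -0.36 for the plasma membrane genes, from -0.31 to 0.081 for the trans-Golgi and early or recycling endosome genes, from -0.86 to -0.64 for the late endosomal genes and from -0.43 to -0.21 for the ER and Golgi genes.

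Members not called in the main result changed sign as follows, on the log2 scale, as did STX3, the single called gene to do so. The sign changed with upper-quartile scaling for VAMP4 (0.14), SNAP47 (0.098), SEC22A (0.15), SEC22B (0.090), SEC22C (0.12) and NAPG (0.15), with library size alone for VAMP4 (0.44), STX12 (0.17), SNAP47 (0.41), BET1 (8.5e-05), SEC22A (0.46), SEC22B (0.41), SEC22C (0.43), BNIP1 (0.28), NAPG (0.46) and STXBP3 (0.29), with all uniquely aligned reads for VAMP2 (-0.19), STX3 (-0.041), STX6 (-0.14), STX16 (-0.37), STX17 (-0.13), STX18 (-0.32), SNAP29 (-0.18), GOSR1 (-0.27) and VTI1A (-0.30), with at least 10 counts in every library for SEC22A (0.013) and NAPG (0.0094), with protein-coding genes only for VAMP4 (0.13), SNAP47 (0.10), SEC22A (0.15), SEC22B (0.091), SEC22C (0.12) and NAPG (0.15). Without each library in turn, values ran from -0.19 to 0.21 for VAMP4, from -0.77 to 0.016 for SNAP25, from -0.17 to 0.0085 for SNAP47, from -0.094 to 0.073 for SEC22A, from -0.21 to 0.0092 for SEC22B, from -0.13 to 0.086 for NAPG, from -0.86 to 0.58 for STXBP2 and from -0.40 to 0.065 for STXBP3. The ratios ran from -0.14 to 0.042 for SEC22B to SEC22C, from -0.041 to 0.42 for BET1 to BET1L and from -0.73 to 0.68 for STXBP2 to STXBP3. At 6 to 32 normalized counts STXBP2 could not be measured, and SNAP25 at 78 to 206 was little better.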
